A study of Rattus norvegicus with 6 samples.

Results

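The vehicle control renal cortex of this study comprised 3 arrays, 1 per animal, of the 6 arrays in the series. They were chosen by their label alone, as the arrays of rats given corn oil, and no measured value entered the choice. The animals were male Sprague-Dawley rats of the outbred Crl:CD(SD) stock, bought at 5 weeks of age and dosed with corn oil for 4 weeks, the vehicle of the compound under study. Total RNA of the renal cortex was labelled with Cy3 and hybridised to a one-colour Agilent oligonucleotide array. The other 3 arrays, from rats given 1,2-dibromoethane at 75 mg/kg/day, were not analysed here. The animals were not inbred and only 3 were measured, so the spread below joins differences between animals, dissections and arrays. The question was which transcripts a kidney cortex without the compound carried, at which signal, and how far animals given only the vehicle differed.

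The renal cortex holds the glomeruli, which filter the blood, and most of the proximal tubule, which takes back sodium, phosphate, glucose, amino acids and filtered protein from the filtrate. Proximal tubule cells are rich in mitochondria, run on fatty acids and other fuels rather than glucose, and make glucose themselves. Further along lie the thick ascending limb, the distal convoluted tubule and the collecting duct, each known by its own set of channels and transporters, with capillaries, mesangial cells and resident macrophages between them. In whole tissue, fewer cells of a type and less RNA per cell cannot be told apart.

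Each array carried 61453 probes that were not controls. Through their transcript accessions, 28206 of them (45.9%) received a current gene symbol, for 15645 genes. A level is the log2 of the background-subtracted signal minus the array's 75th percentile, so 0 is the signal that 25% of the probes exceed. A gene is represented by its probe with the highest mean level. Its percentile is the position of that probe among the representative probes of all 15645 genes. Probe signal also depends on probe sequence: among 5756 genes with at least 2 probes above background on all 3 arrays, the brightest and the dimmest probe of a gene differed by a median of 2.10 log2 units. Percentiles therefore place signals, and small differences between genes do not order transcripts.

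The labelled tissue and sex were checked against defining markers. Slc34a1, the sodium-phosphate cotransporter of the proximal tubule brush border, read 8.25, 8.28 and 8.30 on controls 1, 2 and 3. Umod, the uromodulin of the thick ascending limb, read 8.23, 8.33 and 8.18. The vasopressin-regulated water channel Aqp2 of the collecting duct read 6.92, 7.04 and 6.73. All 3 markers lay above percentile 98 on a mean over the arrays, and no array stood apart for any of them. Nphs1, the nephrin of the podocyte slit diaphragm, read 1.05, 1.03 and 0.94, at percentile 69.0. The Y-linked genes Eif2s3y (-0.01, 0.13 and 0.20) and Ddx3y (-2.01, -1.83 and -2.19) were above background on every array, as the label male requires. Kdm5d, Uty, Usp9y, Sry and Xist were matched to no probe.

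Of the 15645 named genes, 11291 (72.2%) were well above background on all 3 arrays and 3341 (21.4%) on none, by the flag of the scanner software. A laxer flag, for signal positive and distinct from background, left 1365 genes on none. Another 353 genes were above background on 2 arrays and 660 on 1. Control 1 showed 11572 genes above background, control 2 showed 11509 and control 3 showed 12158. Control 3 alone was above background for 529 genes, against 68 for control 1 alone and 63 for control 2 alone. Controls 1 and 2 shared a slide, while control 3 lay on another slide that was scanned on another day. The median local background was 69 on control 1, 78 on control 2 and 49 on control 3. Of 308 negative control spots, 1, 3 and 6 were flagged above background on controls 1, 2 and 3. The part of slide or background in the larger count of control 3 was not tested. No spot was saturated, and 2 to 11 spots per array were outlier-flagged and left out.

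The signal was concentrated in few genes. The 100 brightest genes held 24.9%, 25.3% and 25.1% of the summed signal of all named genes on controls 1, 2 and 3, and 97, 96 and 97 of them were also among the 100 brightest of each array taken alone. When all probes of a gene were averaged, 66 of the 100 were the same. The brightest gene was Ftl1, the light chain of the iron store ferritin, at 9.25, 9.29 and 9.15. The heavy chain Fth1 read 8.92, 8.90 and 8.80. Both chains differed by 0.13 between the highest and the lowest array. Miox, the myo-inositol oxygenase of proximal tubule cells, followed with 9.08, 9.08 and 9.14. Next was Fbp1, the fructose-bisphosphatase of gluconeogenesis, with 9.07, 9.14 and 9.01. The 30 brightest further held the lysosomal proteases Ctsb and Ctsa, the metallothionein Mt1, the glutathione peroxidase Gpx1, the renal P450 enzymes Cyp4a2 and Cyp2c23, and the carriers Slc13a3, Slc22a6 and Slc34a1. By symbol, 17 of the 100 were cytosolic ribosomal proteins, 7 were subunits of ATP synthase, 5 of cytochrome c oxidase, 5 were solute carriers and 3 were P450 enzymes.

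**Figure D1:**
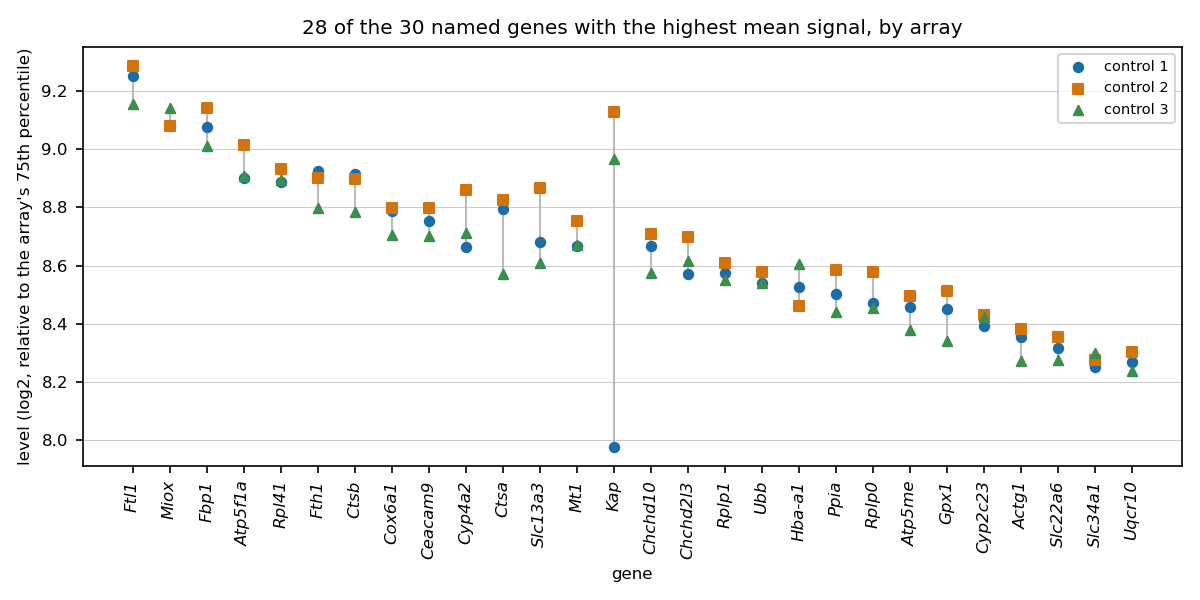
Levels of 28 of the 30 named genes with the highest mean signal (x axis, in order of the mean) on each control array (y axis, log2 relative to the array's 75th percentile); a marker is 1 array and a grey line joins the 3. All but Kap lie within 0.26 log2 units across arrays, while Kap reads 7.98 on control 1 against 9.13 and 8.96.

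Only 1 of the 100 brightest genes spanned over 1 log2 unit, a 2-fold difference, between arrays. This was Kap, the kidney androgen-regulated protein made by proximal tubule cells under male hormones, which read 7.98 on control 1, 9.13 on control 2 and 8.96 on control 3. Its mean was 8.69 ± 0.62 (SD, n = 3). Control 1 was lower than both others. The median SD of the 100 genes was 0.067.

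All 20 genes of the early proximal tubule list were above background on all 3 arrays, beside 72.2% of all named genes, and 15 of them lay above percentile 90. Their median percentile was 96.3, beside 50 for all genes by construction. After Slc13a3, a dicarboxylate carrier, and Slc34a1, the brightest were the glutathione transferase Gsta2 (7.94, 7.61 and 7.87) and Slc5a2, the low-affinity glucose carrier of the early tubule (7.55, 7.51 and 7.51). Lrp2, the megalin that takes up filtered protein, read 6.60, 6.57 and 6.49, and its partner receptor Cubn read 5.79, 5.65 and 5.48. For both receptors control 1 was highest and control 3 lowest, by at most 0.31. Slc2a2, the basolateral glucose exit carrier, read 3.46, 3.57 and 3.90. The dimmest member was Slc9a3, the apical sodium-proton exchanger, with 0.56, -0.22 and 0.16.

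The list of the straight segment had 19 measured members, all 19 above background on every array, with a median percentile of 91.2. Its brightest members after Kap were the organic anion carriers Slc22a6 (8.32, 8.35 and 8.27) and Slc22a8 (7.86, 7.97 and 7.72). Slc3a1, which with Slc7a9 forms the cystine carrier, read 7.82, 7.75 and 7.84. These 3 carriers differed by no more than 0.25 between arrays. Lower in the list came Slc5a1, the high-affinity glucose carrier of the late tubule, at -1.82, -2.21 and -1.90 (percentile 44.1), and the anion carrier Slc22a7 at -2.76, -2.58 and -2.56 (percentile 39.3). Acsm3, a medium-chain acyl-CoA synthetase, was the other member besides Kap with a range over 1: it read 4.14, 2.49 and 3.64, with control 2 lowest. Slc7a13, an acidic amino acid carrier of the straight segment, read 4.72, 5.13 and 4.14.

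The remaining proximal list, of brush border and metabolic genes, had all 30 members above background on all 3 arrays, and 14 above percentile 90. Miox and Fbp1 led it. Pck1, which commits oxaloacetate to gluconeogenesis, had a level of 7.81 ± 0.17 (SD, n = 3). The water channel Aqp1 read 7.03, 6.96 and 6.85. The brush border peptidases spread widely: Dpp4 stood at percentile 97.5, Anpep at 90.8, Mep1a at 89.4, Mme at 77.6 and Ace at 46.8. Of the vitamin D enzymes, the inactivating Cyp24a1 read 1.09, 1.74 and 1.19, and the activating Cyp27b1 read 0.56, 0.30 and 0.25. Dimmest was the organic anion carrier Slco4c1, with -4.42, -4.03 and -5.34 and control 3 lowest.

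Promoter sequence could be set beside these levels for 12780 of the 15645 genes, from RefSeq windows of 250 bases before to 50 after the annotated start (GRCr8). The letters TATAAA, the core of the TATA box that places the start of transcription, stood on either strand in 11 of 57 windows of the 3 proximal tubule lists (19.3%). They stood in 14.3% of all 27457 windows and in 7.99% of windows of genes above background on all 3 arrays. Among the latter, the share was 10.4% in the 925 windows of the brightest 10%. In a wider bright set of 2312 windows it was 7.35%, so the share did not rise steadily with signal. On the gene's own strand and before the start, TATAAA stood in 8 of the 57 windows. For genes above background on all 3 arrays, this was so in 477 of 9246 windows (5.16%). The 4 brightest of these 8 genes are shown, chosen after their values were seen, because they pair high tubular signals with these letters. The 250 bases before the start are given 5′ to 3′ on the gene's own strand, with TATAAA in capitals.
Miox, chr7:122284410-122284659, plus strand: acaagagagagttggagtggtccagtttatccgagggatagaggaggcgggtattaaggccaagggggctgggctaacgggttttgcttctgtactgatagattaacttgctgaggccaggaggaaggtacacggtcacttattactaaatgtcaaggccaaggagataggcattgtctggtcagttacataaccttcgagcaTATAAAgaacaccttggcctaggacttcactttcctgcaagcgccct
Slc34a1, chr17:9238984-9239233, minus strand: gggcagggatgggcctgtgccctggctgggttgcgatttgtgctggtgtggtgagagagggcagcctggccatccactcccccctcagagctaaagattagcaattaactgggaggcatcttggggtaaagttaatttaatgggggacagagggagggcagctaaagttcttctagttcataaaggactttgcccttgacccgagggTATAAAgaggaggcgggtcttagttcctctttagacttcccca
Slc3a1, chr6:15394750-15394999, minus strand: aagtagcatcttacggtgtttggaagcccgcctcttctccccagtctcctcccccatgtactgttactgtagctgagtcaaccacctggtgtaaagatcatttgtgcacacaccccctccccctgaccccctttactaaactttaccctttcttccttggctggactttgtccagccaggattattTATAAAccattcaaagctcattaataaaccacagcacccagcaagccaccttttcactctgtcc
Aqp1, chr4:85812534-85812783, plus strand: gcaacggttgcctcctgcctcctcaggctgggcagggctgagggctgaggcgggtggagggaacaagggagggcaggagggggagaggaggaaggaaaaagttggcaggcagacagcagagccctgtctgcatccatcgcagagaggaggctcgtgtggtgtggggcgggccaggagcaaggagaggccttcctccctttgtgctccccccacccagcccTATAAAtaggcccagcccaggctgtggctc

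The letters began 47 bases before the start of Miox and 43 before that of Slc34a1. In Slc3a1 they began 64 bases before the start, and in Aqp1 30 bases before it. A match is a description of letters and not a binding site. The letters CAAAGTCCA, as bound by HNF4 factors, were rarer, on either strand in 2 of the 57 windows and in 0.375% of all windows, while Hnf4a read 3.46, 3.84 and 3.57.

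Base composition of the windows was compared between classes of genes as a description. The median GC share was 60.0% for genes above background on all 3 arrays and 46.7% for genes above background on none. Over the 12780 windows of named genes it was 57.7%, and over all windows 52.3%. The observed over expected CpG count was 0.740 in the first class and 0.247 in the second, beside 0.648 over named genes. TATAAA on either strand stood in 23.4% of the second class. With olfactory and vomeronasal receptors left out, the genes on no array had a median GC share of 52.3%, and 17.1% held TATAAA. The proximal tubule lists had a median CpG ratio of 0.308, below the 0.921 of cytosolic ribosomal protein genes and the 0.911 of oxidative phosphorylation genes.

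**Figure D2:**
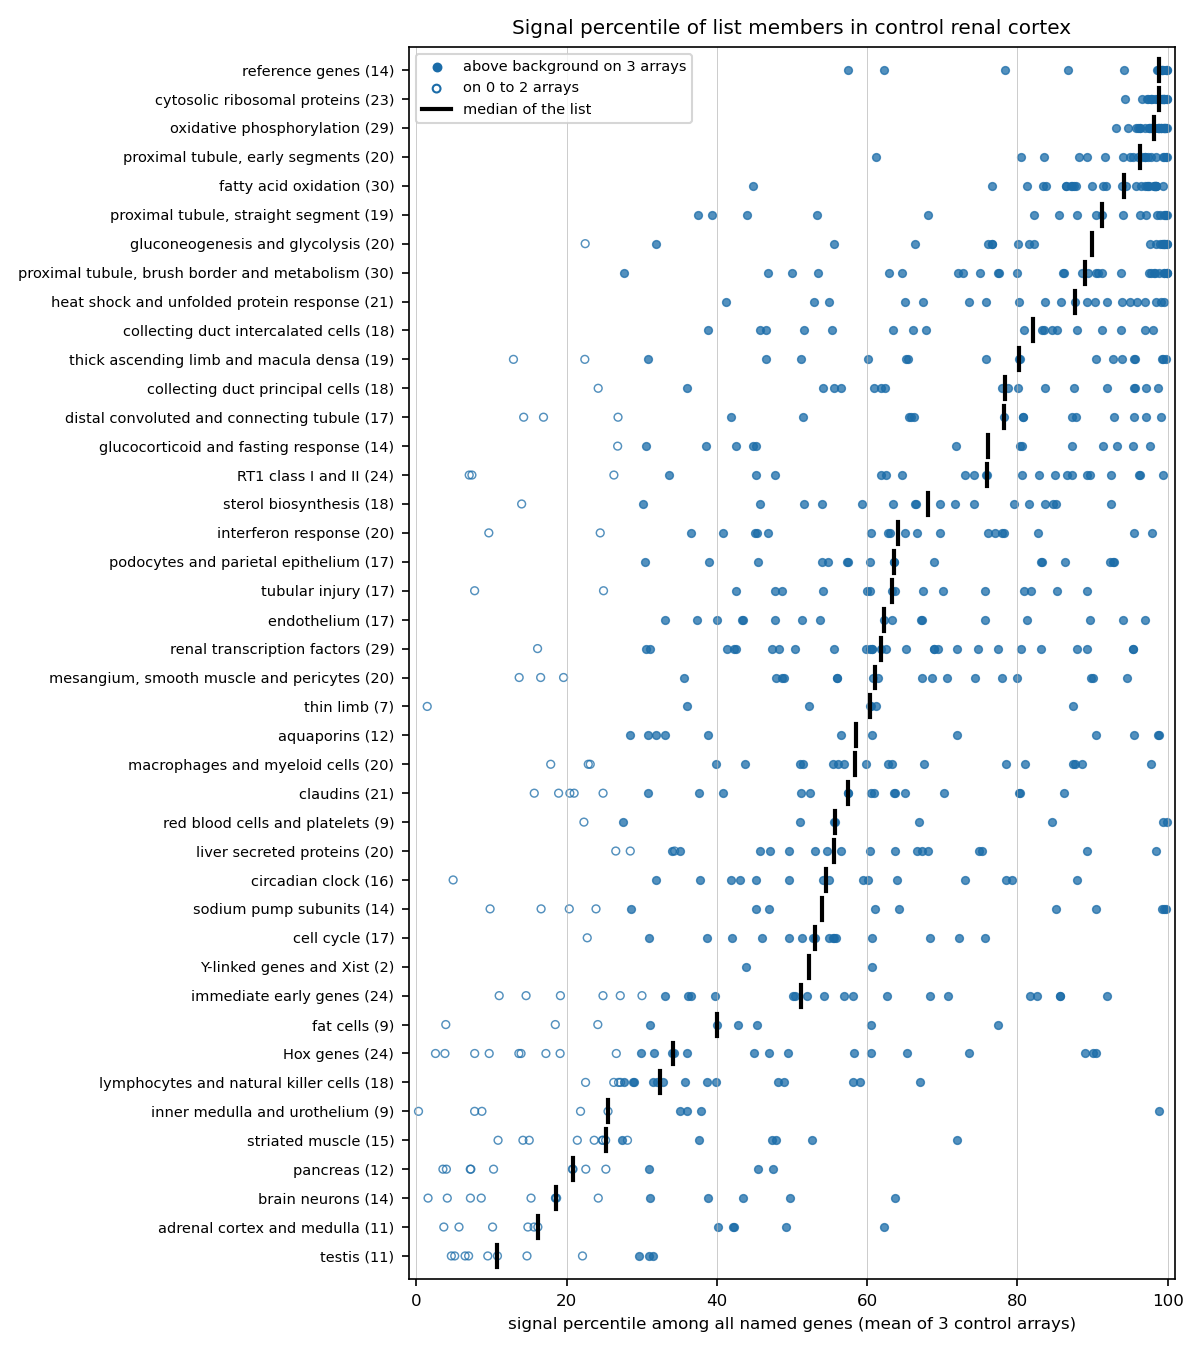
Signal percentile (x axis) of every measured member of the 42 gene lists (y axis, number of measured members in brackets); filled points are genes above background on all 3 control arrays, open points the others, and the black bar is the list's median. Lists of proximal tubule, mitochondrial and ribosomal genes lie at the bright end, with medians of 89.0 to 98.8, and testis, adrenal, brain and pancreas lists at the dim end, with medians of 10.8 to 20.8.

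The thick ascending limb list had 17 of 19 measured members (89.5%) above background on all 3 arrays, beside 72.2% of all named genes. Its median percentile was 80.3. Beside Umod, Fxyd2, the gamma subunit of the sodium pump, read 7.44, 7.36 and 7.29. Slc12a1, the furosemide-sensitive cotransporter, read 4.24, 4.23 and 4.57, and the growth factor Egf read 5.11, 5.08 and 5.03. Control 3 was highest for Slc12a1 and lowest for Fxyd2 and Egf. Neither of the macula densa genes Ptgs2 and Nos1 was above background on any array.

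Of the 17 measured distal convoluted and connecting tubule genes, 14 (82.4%) were above background on all 3 arrays, beside 72.2% of all named genes. Their median percentile was 78.2. Klk1, the tissue kallikrein of the connecting tubule, was brightest with 7.18, 7.30 and 7.37. Hsd11b2, which shields the mineralocorticoid receptor from glucocorticoids, read 5.62, 5.90 and 5.90. Slc12a3, the thiazide-sensitive cotransporter, read 4.37, 4.31 and 4.43. For Klk1 and Hsd11b2 control 1 was lowest. The plasma membrane calcium pump Atp2b4 and the calcium-binding Pvalb were above background on no array, and the calcium channel Trpv6 on 2.

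In the collecting duct, 17 of 18 principal cell genes (94.4%) and all 18 intercalated cell genes were above background on all 3 arrays. Over all named genes the share was 72.2%. The 2 lists had median percentiles of 78.4 and 82.1. Beside Aqp2, the basolateral water channel Aqp3 read 5.38, 5.10 and 4.84. The subunits of the epithelial sodium channel stood at percentile 92.0 for Scnn1b, 78.0 for Scnn1g and 61.0 for Scnn1a. Krt19, a keratin of ductal epithelium, had a range over 1 in this list and read 0.02, -0.29 and -1.57, with control 3 lowest. Elf5, a transcription factor, was the other such member, with -3.33, -3.74 and -2.27. Among intercalated cell genes, the proton pump subunit Atp6v1g3 read 6.08, 6.45 and 6.36 and the chloride-bicarbonate exchanger Slc26a4, pendrin, read 5.49, 5.82 and 5.67. Control 1 was lowest for both. Foxi1, the factor known for this cell type, read 3.47, 3.53 and 3.22.

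The podocyte and parietal epithelium list was above background in all 17 measured members, at a median percentile of 63.5, and had a median SD of 0.086. Podxl, the podocalyxin of the foot process surface, read 4.23, 4.28 and 4.20. Wt1, the podocyte factor, read 0.06, 0.14 and 0.02. Vegfa and Actn4 were brighter, at percentiles 92.7 and 92.9, and both are made well beyond podocytes. No member of the list spanned over 1 log2 unit, and the list's median deviation was at most 0.01 on any array.

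All 17 measured endothelial genes were above background on the 3 arrays, at a median percentile of 62.3. Plvap, of the diaphragms of fenestrated capillaries, read 5.77, 5.72 and 5.57, and Kdr, the main VEGF receptor, read 4.66, 4.73 and 4.58. For 11 of the 17 genes control 3 was the lowest array, as it was for 5009 of all 11291 genes. Of the 20 genes of mesangium, smooth muscle and pericytes, 17 (85%) were above background on all 3 arrays, beside 72.2% of all named genes. The matrix genes Col1a2 (3.63, 3.81 and 3.99), Col3a1 (1.32, 1.57 and 1.92) and Col1a1 (0.78, 0.79 and 1.36) were each lowest on control 1 and highest on control 3. Dcn, decorin, went another way, with 1.82, 2.86 and 1.52 and control 2 highest.

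Of 20 genes of macrophages and myeloid cells, 17 (85%) were above background on all 3 arrays, beside 72.2% of all named genes. Their median percentile was 58.4. Lyz2, lysozyme, read 6.03, 6.29 and 6.26, and Tyrobp, a signalling adaptor, read 3.54, 3.49 and 3.58. C1qb, a complement chain of resident macrophages, read 3.47, 3.33 and 3.29. Ccr2 and Cd163, of monocytes and of a macrophage subset, were above background on no array. Lymphocyte and natural killer genes were dimmer, at a median percentile of 32.5. Still, 14 of 18 (77.8%) were above background on all 3 arrays, near the 72.2% of all named genes. Pax5 led that list at 0.67, 0.49 and 1.24, followed by Nkg7 at 0.00, -0.24 and 0.02 and the T cell receptor chain Cd3d at -0.45, -0.11 and 0.04.

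The globins of red blood cells were bright: Hba-a1 read 8.53, 8.46 and 8.60 and Hbb read 7.51, 7.53 and 7.73, both highest on control 3. Globin RNA is known to stay in reticulocytes. Lists of tissues next to or apart from the cortex were mostly dim. Of 11 adrenal genes, 5 (45.5%) were above background on all 3 arrays, beside 72.2% of all named genes, and 6 on none. The steroid enzymes Cyp11b1 and Cyp11b2 were among the 6. Th, Hsd3b1, Pnmt and Cyp21a1 were among the 5, at percentiles 62.3, 49.2, 42.3 and 42.1. Of 9 measured genes of the inner medulla and urothelium, 4 (44.4%) were above background on all 3 arrays and 3 on none. The uroplakin Upk2 and the keratin Krt20 of the urothelium were among the 3. The uroplakins Upk1b (-2.61, -2.75 and -3.10) and Upk1a (-3.47, -3.17 and -3.20) were among the 4. The inner medulla and urothelium list had a median percentile of 25.5, and its brightest member, Aqp1, is also a proximal tubule gene. For fat, Adipoq, adiponectin, was above background on all 3 arrays (-0.03, 0.07 and 0.23), whereas the leptin gene Lep was on none.

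Lists of unrelated organs were mixed. Of 11 testis genes, 3 (27.3%) were above background on all 3 arrays and 8 on none. Of 12 pancreas genes, 3 (25%) were above background on all 3 and 5 on none. Over all named genes, the shares were 72.2% on all 3 and 21.4% on none. Members above background on all 3 arrays included the insulin gene Ins1 (-1.76, -1.70 and -1.84), the pancreatic protease Ctrb1 (-1.71, -1.56 and -1.17) and the protamine Prm2 of sperm (-3.59, -4.14 and -3.96). The source of such signals was not tested. Ins1 stood at percentile 45.5 and Prm2 at 31.5.

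Genes of oxidative phosphorylation were all bright. All 29 measured genes of oxidative phosphorylation lay above percentile 90, with a median of 98.2 and a median SD of 0.067. Atp5f1a, the alpha subunit of ATP synthase, read 8.90, 9.01 and 8.91, and Cox8a and Cox4i1 of cytochrome c oxidase read 8.22, 8.17 and 8.15 and 8.05, 8.04 and 7.88. Of 30 genes of fatty acid oxidation, all were above background on the 3 arrays and 18 lay above percentile 90, while Pdk4 was lowest at 44.7. Hadh, the short-chain hydroxyacyl-CoA dehydrogenase, led with 7.64, 7.67 and 7.58. For 27 of the 30 genes control 3 was the lowest array, beside 5009 of all 11291 genes above background on the 3 arrays. The list's median deviation was 0.03, 0.08 and -0.12. Some other bright lists leaned the same way, but not all. Control 3 was lowest for 19 of 29 oxidative phosphorylation genes and 16 of 23 cytosolic ribosomal genes, with median deviations of -0.04 and -0.05. In the early proximal tubule list it was lowest for 9 of 20 genes. In the straight segment list it was lowest for 7 and highest for 7 of 19 genes, with a median deviation of 0.07. Control 3 lay on another slide than controls 1 and 2, and the part of the slide was not tested.

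In the sugar pathways, gluconeogenic genes were bright and some glycolytic isoforms dim. Pyruvate carboxylase, Pc, read 7.93, 7.95 and 7.83, and G6pc1, which releases free glucose, read 7.86, 7.57 and 7.45. The hexokinase Hk1 stood at percentile 76.7, and Hk2 was above background on 1 array. Among the subunits of the sodium pump, Atp1b1 (8.21, 8.22 and 8.24) was bright, and Atp1a4 and Atp1b4, known from testis and muscle, were above background on no array. Atp1b1 and Fxyd2 both lay above percentile 99.

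Cytosolic ribosomal proteins and reference genes are often used as steady controls. All 23 listed ribosomal genes lay above percentile 90, with a median SD of 0.065, and the 14 reference genes had a median SD of 0.069. An exception among them was Rpl19, at 7.04, 7.53 and 7.79, lowest on control 1. Rplp1 read 8.57, 8.61 and 8.55. Of the reference genes, Ppia read 8.50, 8.58 and 8.44. Gapdh read 7.40, 7.38 and 7.23, and Tbp, a basal transcription factor, read -0.22, -0.26 and -0.23. Tbp stayed within 0.04 across the arrays.

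Of 29 measured renal transcription factors, 28 (96.6%) were above background on all 3 arrays, beside 72.2% of all named genes. The nuclear receptors Esrra (5.10, 5.04 and 5.02), which drives mitochondrial genes, and Nr1h4 (5.03, 5.09 and 5.02), the bile acid receptor, were brightest. Hnf4a followed, and then Foxi1. Esrrb was above background on no array. The 24 measured Hox genes, which keep the positional identity of a tissue, were mixed. Brightest were Hoxd9 (3.86, 3.65 and 4.12), Hoxb7 (3.76, 3.81 and 3.79), Hoxa7 (3.66, 3.62 and 3.53) and Hoxd10 (1.52, 1.39 and 1.64). In all, 15 (62.5%) were above background on the 3 arrays and 8 on none, beside 72.2% and 21.4% of all named genes. All 5 measured genes of the last paralogue groups, Hoxd12, Hoxa13, Hoxd13, Hoxb13 and Hoxc12, were among the 8. Hoxd1 and Hoxb3 were among them too.

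All 12 measured aquaporins were above background on every array, from Aqp1 at percentile 98.8 to Aqp9 at 28.4. Aqp1, Aqp2, Aqp3 and Aqp7, all known from nephron segments, lay above percentile 90. Claudins are the tight junction proteins that set each segment's ion permeability. Of 21 measured, 16 (76.2%) were above background on all 3 arrays, beside 72.2% of all named genes. The leaky-junction Cldn2 of the proximal tubule read 3.20, 3.02 and 3.13, and Cldn19 and Cldn10 of the thick limb read 2.41, 2.22 and 2.43 and 2.34, 2.22 and 2.47. Cldn11, Cldn15, Cldn20 and Cldn6 were above background on no array. Cldn9 was the brightest claudin with a range over 1, at 0.74, 0.90 and 1.79, highest on control 3.

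The dim end of the array was held by receptor families of sensory cells. Of 1111 olfactory receptor genes, chosen by symbol after the values were seen, 861 were above background on no array and 115 (10.4%) on all 3. For vomeronasal receptors the counts were 92 and 16 of 116, and for taste receptors 30 and 1 of 34. None of these genes lay in the brightest 10% of named genes. Over all named genes, 21.4% were above background on no array and 72.2% on all 3. Of 22 genes of the prolactin family, most of them placental, 19 were above background on none. At the other end, all 67 mitochondrial ribosomal proteins and all 31 complex I subunits were above background on every array, as were 45 of 46 proteasome subunits.

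The 3 arrays agreed closely gene by gene. Across the 11291 genes above background on all 3, Pearson's r was 0.994 for controls 1 and 2, 0.993 for controls 1 and 3 and 0.993 for controls 2 and 3; genes are not independent replicates. The median absolute difference was 0.110 for the pair on 1 slide and 0.144 and 0.145 for the pairs across slides. A difference over 2-fold was seen for 148 genes in the first pair, 182 in the second and 200 in the last. The median SD of a gene over the arrays was 0.114, with 0.197 for the dimmest 2823 genes and 0.120, 0.098 and 0.082 for the next brighter sets of like size. Replicated spots of 8 spiked control probes had a median SD of 0.048 within an array and 0.132 between arrays on the same scale. Most spiked probes shifted together, for example 3.03, 3.30 and 3.17 or 5.20, 5.47 and 5.32. The brightest, at 9.38, 9.48 and 9.37, was lowest on control 3 instead. The 0.132 thus holds a shift shared by most spikes and is not the noise of single probes. The median SD of genes, 0.114, lay between 0.048 and 0.132.

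**Figure D3:**
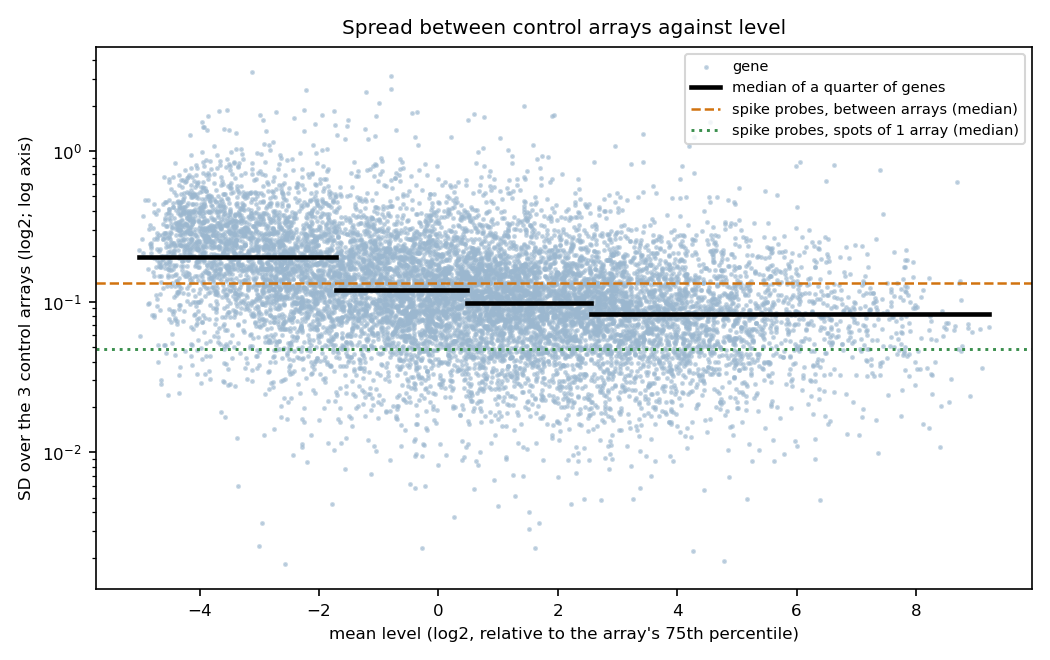
SD over the 3 control arrays (y axis, log2 units on a log axis) against mean level (x axis, log2 relative to the 75th percentile) for the 11291 genes above background on all 3; black bars are medians of 4 sets of genes of like size, the dashed line the median of spiked control probes between arrays (0.132) and the dotted line that of their spots within an array (0.048). The median is 0.197 in the dimmest set and 0.082 in the brightest.

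Genes with the smallest SD in the brighter part of the range were Ubxn4, of endoplasmic reticulum quality control, at 4.78 on all 3 arrays, the selenium enzyme homologue Sephs1 at 4.27, and the epithelial protease Prss8 at 6.40, 6.39 and 6.39. Their SD was below 0.005. They were picked from 11291 genes for their small SD and are given as values. A range over 1 was seen for 341 of 11291 genes (3.02%), over 2 for 59 and over 3 for 23. With normexp background correction the first count was 176. Of the 341, control 3 was the array farthest from the middle one for 141 and control 1 for 93.

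The widest range of all genes above background on the 3 arrays was that of Fam111a, a protease linked to DNA replication, at 0.72, -4.60 and -5.50. Its representative probe was above background on 2 arrays, and its other probes went the same way, with control 1 highest. Slpi, a secreted inhibitor of leukocyte elastase, read -4.40, 1.01 and 1.00, and its other probe -5.04, -0.41 and -0.48. Slc27a5, a bile acid and fatty acid CoA ligase, read 1.13, 0.20 and -3.73, and its other probe -1.08, -2.15 and -6.71. For each of these genes the same array stood apart on every probe. Cyp4f5 read -1.27, -5.10 and -0.26 on a probe that was above background on only 2 arrays, so its reading on control 2 is a background value. A second probe, which passed the flag on every array, read -2.89, -2.98 and -1.88 and did not show control 2 apart. The probes of a gene thus did not always move together.

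The crystallin Cryga of the lens read 3.67, 0.78 and -0.17 and the related Crygd 1.35, -1.65 and -2.67, both highest on control 1. Another probe of Crygd, also above background on all 3 arrays, read -2.57, -2.51 and -2.10 and did not show it. Gp2, a zymogen granule protein related to uromodulin, read 1.02, 2.11 and -1.35, and the aldo-keto reductase Akr1b8 read 2.19, 3.45 and 0.06. Control 3 was lowest for both. Hsd17b1, an oestrogen-forming steroid dehydrogenase, read 0.04, 3.39 and 2.38. Pcdh9, a protocadherin, was highest on control 2, with -4.94, -1.57 and -4.52, on a probe above background on only 2 arrays. Both of its dimmer probes were also highest on control 2, whereas the only one above background on all 3 arrays read -4.24, -3.59 and -3.59.

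**Figure D4:**
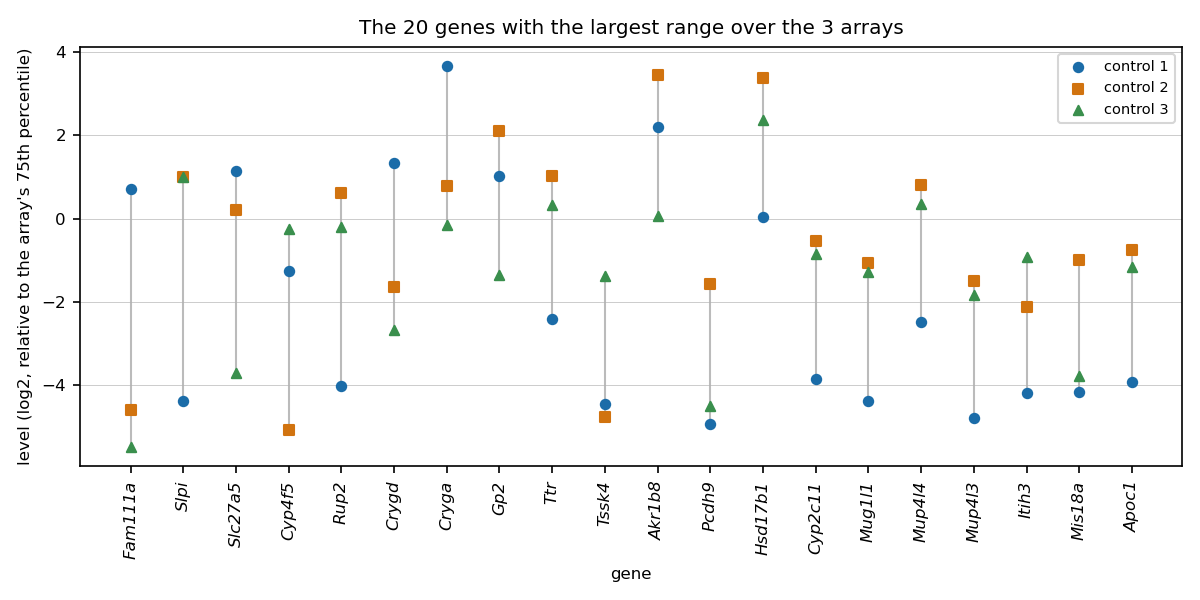
Levels of the 20 genes with the largest range among genes above background on all 3 control arrays (x axis, in order of the range) on each array (y axis, log2 relative to the array's 75th percentile); a marker is 1 array and a grey line joins the 3. Control 1 is the lowest array for 12 of the 20, among them Ttr, Cyp2c11, Apoc1 and the Mup genes, and the highest for Fam111a, Slc27a5, Crygd and Cryga.

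Among genes above background on only 1 or 2 arrays, Cyp2c24, a P450 enzyme, had the widest range: it was not well above background on control 1 and read 2.26 on control 2 and 0.28 on control 3. Its second probe was likewise above background on controls 2 and 3 only, at -0.09 and -2.15. Klf14 was above background on control 3 alone, at 0.21, and so were Nrk and the placental Prl8a5. The olfactory receptor Or8k31, the potassium channel Kcna3 and Zp3r were above background on control 2 alone, and no other probe of theirs was above background on any array.

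The next counts are over the 11291 genes above background on all 3 arrays. Of them, 43 were lower on control 1 than on both other arrays by over 1 log2 unit, and 15 were higher. On control 2 these counts were 19 lower and 35 higher, and on control 3 they were 30 and 47. The 43 held 5 of the 17 members of the liver secreted protein list among the 11291, namely Alb, Ttr, Hp, Mug1 and Rbp4. They also held 7 genes with Mup, Obp3 or Mug symbols, picked after their values were seen, which encode urinary and plasma proteins. Mug1 counts under both, and near-identical Mup genes may share probe signal. Other genes known from liver stood apart on another array: F2, Hrg, Kng1, Kng2 and Slc27a5 were low on control 3, and Gc was high on control 2. Cyp2c11, the male-specific hepatic P450, read -3.87 on control 1, -0.54 on control 2 and -0.85 on control 3. Fabp1, the liver fatty acid-binding protein, read -3.36, -0.39 and -0.80, and Obp3 read -1.34, 1.57 and 1.28.

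Further genes with a single array apart were picked here after their values were seen, the first of them bright. Gpx2, a selenium peroxidase of epithelia, read 3.52, 5.71 and 3.60, with control 2 high, and Cyp4a3, a fatty acid hydroxylase, read 6.94, 8.25 and 6.98 with the same array high. Sult1c2, a sulphotransferase, read 6.77, 5.77 and 6.93 and was low on control 2. On control 3 the kininogens Kng1 (-0.84, -0.90 and -2.94) and Kng2 (-0.39, -0.28 and -2.53) and the copper pump Atp7a (0.81, 1.03 and -1.21) were low as well.

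The liver secreted protein list itself had 20 measured members, 17 of them (85%) above background on all 3 arrays and 3 on 2 arrays. Over all named genes, 72.2% were above background on all 3. Serum albumin, Alb, read -1.17, 1.94 and 1.50, and the thyroxine carrier Ttr read -2.42, 1.02 and 0.34. The haptoglobin gene Hp read -2.44, -0.07 and -1.04. Control 1 was lowest and control 2 highest for all 3 genes. Over the 17 members the median deviation from the mean of the arrays was -0.57 on control 1, 0.29 on control 2 and 0.15 on control 3, beside 0.02, 0.01 and -0.02 over all genes. Control 1 was the lowest array for 14 of the 17, beside 2886 of all 11291 genes. Of the 17, 9 had a range over 1, beside 3.02% of all 11291 genes. The members not above background on control 1 were Serpina1, Fgg and Apoa2, each lowest on that array.

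Not every liver gene followed. F2, prothrombin, ran the other way with 2.38, 1.87 and 0.86. Ambp read 1.30, 0.63 and 0.77 and was likewise highest on control 1. Tf, transferrin, did follow, with 3.04, 3.99 and 3.89. Serpinc1, antithrombin, was the brightest member at 6.50, 6.55 and 6.67. It was lowest on control 1 too, but its range was only 0.17. The summed level of the list, in multiples of the 75th percentile signal, was 114, 133 and 138, since Serpinc1 carries most of it. Control 1 was also low for Kap, a tubule gene, and for Rup2, a urinary protein, at -4.03, 0.61 and -0.21. The proximal tubule lists as a whole did not share this, with median deviations of 0.08, 0.01 and 0.04 on control 1 for the early, straight and brush border lists. The source of these differences was not tested.

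**Figure D5:**
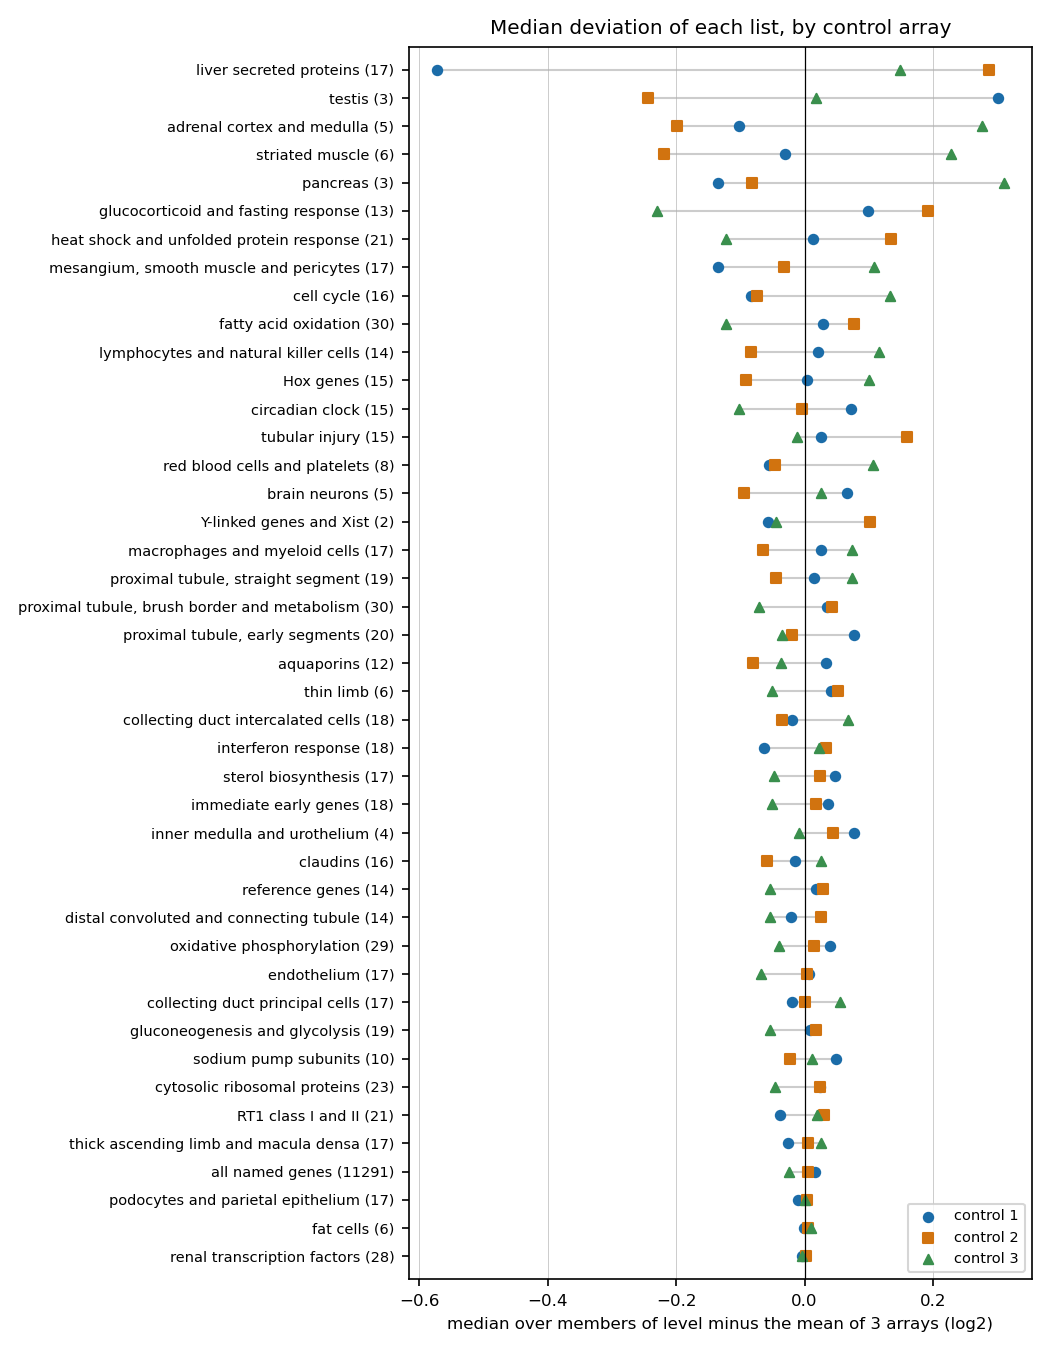
Median over a list's members of the level on an array minus the mean of the 3 arrays (x axis, log2 units), for each of the lists and for all named genes (y axis, number of members above background on all 3 arrays in brackets); a marker is 1 control array. The liver secreted proteins lie at -0.57 on control 1, whereas the nephron segment lists stay within 0.08 of 0 on every array.

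The glucocorticoid and fasting list had median deviations of 0.10, 0.19 and -0.23 on controls 1, 2 and 3, over 13 members. Control 2 was highest for 7 of them and control 3 lowest for 7, beside 3751 and 5009 of all 11291 genes. Errfi1, a feedback inhibitor of the EGF receptor, read 6.04, 6.91 and 5.23. Pdk4, which holds pyruvate back from oxidation, read -2.25, -0.69 and -2.65. Control 2 was highest and control 3 lowest for both genes. Fkbp5, a glucocorticoid receptor target, read 2.16, 2.44 and 2.43 and did not share that order. Heat shock and unfolded protein genes had median deviations of 0.01, 0.13 and -0.12. Control 3 was highest for none and lowest for 15 of their 21 members, beside 3335 and 5009 of all 11291 genes. Hspa8, the brightest member of the list, read 7.82, 8.01 and 7.63.

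The lists of nephron segments, podocytes and endothelium deviated by at most 0.08 on any array. The mesangial and smooth muscle list deviated by -0.13, -0.03 and 0.11. Testis genes, with 3 members, deviated by 0.30, -0.24 and 0.02, and adrenal genes, with 5, by -0.10, -0.20 and 0.28. Without the filter on dim probes the adrenal list turned sign on controls 2 and 3 and the testis list on control 2, and the mesangial value on control 1 was near 0 without control 3. The 3′ to 5′ difference of the spotted Gapdh controls, a sign of RNA length, was 2.27, 2.36 and 2.31, and that of Pgk1 was 5.28, 5.45 and 5.56, with control 1 lowest for both.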

How the data were processed

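Renal cortex RNA of 6 rats, 1 array each, was measured; only the 3 corn oil arrays, grouped by their label, were used. Per the file headers, the deposited intensity values (the processed signal) come from version 10.7.1.1 of Agilent's Feature Extraction software, which subtracts background, on array design 045522 with a grid of build rn4; the submitters' processing notes name version 10.7. The series table deposited by the authors equals the processed signal over the array's 75th percentile: for at least 99.97% of probes above background it lay within 0.01 log2 units, and its column medians were 0.1016, 0.1025 and 0.1122.

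Here the processed signal of each probe was divided by its 75th percentile on the array, control probes left out, and put on a log2 scale. Outlier spots were left out. Above background means the scanner software's flag for any probe of a gene; no intensity filter was added. For 11273 of the 11291 genes the representative probe itself carried the flag on all 3 arrays. Accessions were named through the RefSeq table of GRCr8, from which names and promoter sequence were taken, and 33247 probes stayed unnamed here. The number of arrays, 3, limits the precision, and no group was tested. Alternatives were quantile normalization, median centring, normexp with offset 50 (limma 3.58.1, R 4.3.3), the mean of a gene's probes, the deposited table, a laxer flag, no filter, 1 slide and leaving out each array. The files have no mean signal column, so normexp used the median signal. Scripts ran in Python 3.11.15 and were tested on simulated data.

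Named by rule were the 30 brightest genes, up to 4 bright and 2 dim members of each of 42 lists, the 20 and 10 genes with the largest range (on all 3 arrays, and on 1 or 2), the 10 with the smallest SD and the label markers. Some genes and a planned count of promoter letters are not reported here. Other list members were named for their role, after their values were seen. The gene lists and all choices were made with earlier results of these data known.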

Additional observations from a re-analysis of the deposited data

Results flagged for a closer look

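The array also carries 84 probes for synthetic ERCC control RNAs, which the labels do not mention as added and which entered no comparison. Of them, 6 were above background on control 2 and 8 on control 3, against 3 on control 1. There were 10 such probes in all, and 3 were above background on every array. Their levels lay between -4.55 and -1.70 on control 1, between -4.55 and -2.17 on control 2 and between -5.26 and -1.81 on control 3. As a share of 308 negative control spots, 0.325%, 0.974% and 1.95% were above background on controls 1, 2 and 3. The source of the ERCC signal was not tested.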

How the results depend on the processing

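With only 3 animals in 1 group, no spread between litters, cages or dissections can be separated. No paired analysis was possible because no groups were compared. With the laxer flag of the scanner software, 1365 genes were above background on no array, against 3341. The median level of genes above background was 3.73 under median centring and -0.4752 when all probes of a gene were averaged, against 0.48. With that average, 66 of the 100 brightest genes were shared. The lowest correlation between arrays was 0.99434 with normexp, and ran from 0.99254 to 0.99412 with 1 array left out. Genes with a range over 1 numbered 176 with normexp, 1742 with no filter on dim probes, 148 on the 2 arrays of slide 1, and 149 to 210 with 1 array left out, against 341; fewer arrays give smaller ranges by construction. The median SD stayed between 0.078 (slide 1) and 0.16 (no filter). The deviation of the liver list on control 3 was -0.177 without control 1 and 0.3601 without control 2, and its deviation on control 1 kept its sign throughout. That of the mesangial list on control 1 was -0.0743 without control 2 and 0.002 without control 3. Short dim lists turned sign. The pancreas list gave 0.0046 (control 1) and -0.0706 (control 3) with the mean of probes, and 0.0481 and -0.0738 with no filter. With no filter, the adrenal list gave 0.1567 (control 2) and -0.1391 (control 3), and the testis list 0.1457 (control 2). The cause was not tested. Median percentiles of lists moved by up to 17.4 with the mean of probes and by at most 4.83 under the other settings. Percentiles of single named genes moved by up to 30.3 with the mean of probes and 24.7 with 1 array left out. Their median move was 2.85 with the mean of probes and at most 0.32 with 1 array left out.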

Other observations

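Some enzymes that handle foreign compounds were bright, though their families as a whole were not all so. The families were picked by symbol after the values were seen. Of 71 cytochrome P450 genes, 35 (49.3%) were above background on all 3 arrays, beside 72.2% of all genes, and 9 lay above percentile 90. Their median percentile was 34.3, and that of 14 UDP-glucuronosyltransferases was 46.2. Cyp4a2 read 8.66, 8.86 and 8.71, Cyp2c23 read 8.39, 8.43 and 8.42 and Cyp4a8 read 8.21, 8.23 and 8.31; these enzymes are known to act on fatty acids in the kidney. Cyp2e1, which oxidises many small solvents, read 6.32, 6.16 and 5.90. Of 24 glutathione transferases, which conjugate reactive compounds to glutathione, 20 (83.3%) were above background on all 3 arrays. Of the 24, 8 lay above percentile 90, and the family's median was 78.9. Gsta5 read 8.13, 7.77 and 7.95, Gsta1 read 7.61, 7.81 and 7.77 and Gsta3 read 6.20, 6.42 and 6.43. Control 1 was highest for Gsta5 and lowest for Gsta1 and Gsta3. Of 332 solute carriers, 263 (79.2%) were above background on all 3 arrays and 50 lay above percentile 90; the creatine carrier Slc6a8 read 7.25, 7.18 and 7.03.

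Genes known to mark tubular injury were not all dim in these animals. Of 17 measured members, 15 (88.2%) were above background on all 3 arrays, beside 72.2% of all named genes, at a median percentile of 63.3. Of these 15, 4 had a range over 1, beside 341 of all 11291 genes (3.02%). Havcr1, the kidney injury molecule, was above background on 2 arrays, at -5.59, -4.63 and -5.00, and the repair keratin Krt20 on none. Clu, clusterin, read 2.68, 3.59 and 2.69, with control 2 highest, and the secreted phosphoprotein Spp1 read 2.82, 2.72 and 2.10. Lcn2, the lipocalin NGAL, read -1.76, -2.94 and -1.81 and was lowest on control 2. No array was high for all of these genes. Of 17 cell cycle genes, 16 (94.1%) were above background on all 3 arrays. Of these, 12 were highest on control 3, which was the highest array for 3335 of all 11291 genes. Mki67, the proliferation marker, read 0.09, 0.02 and 0.20, while Cenpf, a kinetochore protein, read -4.78, -4.93 and -2.17.

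Antigen presentation genes were measured as a further list. Of 24 RT1 and related genes, 21 (87.5%) were above background on all 3 arrays, beside 72.2% of all named genes. Their median percentile was 75.9. B2m, the light chain of class I molecules, read 7.53, 7.64 and 7.58, and Cd74, the class II invariant chain, read 5.21, 5.23 and 5.56. RT1 genes are near-identical copies in an outbred stock, so their probes may share signal. Of 20 interferon response genes, 18 (90%) were above background on all 3 arrays, led by Mx2 at 6.33, 6.15 and 6.32.

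Genes that follow handling and time of day were measured too. Of 24 immediate early genes, 18 (75%) were above background on all 3 arrays, beside 72.2% of all named genes. Jund read 4.25, 4.22 and 3.98 and Egr1 only -3.55, -3.77 and -3.48. Nr4a1 read 1.74, 1.33 and 0.49 and was lowest on control 3. Of 16 clock genes, 15 (93.8%) were above background on all 3 arrays. Dbp, an output gene of the clock, read 3.26, 3.63 and 3.31, and the repressor Nr1d1 read -2.95, -2.28 and -1.61. Of 18 sterol synthesis genes, 17 (94.4%) were above background on all 3 arrays. The median percentile of the list was 68.1, with Msmo1 at 4.34, 4.31 and 4.18. The thin limb list had 6 of 7 members (85.7%) above background on all 3 arrays. It was led by the small heat shock protein Cryab at 3.28, 3.38 and 3.30. The lists of 15 striated muscle and 14 brain genes had median percentiles of 25.2 and 18.6. Of these genes, 6 (40%) and 5 (35.7%) were above background on all 3 arrays. Among them were Actc1, cardiac actin, at 1.25, 1.21 and 1.55 and the neurofilament gene Nefm at 0.11, 1.21 and 0.07.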
